A study of Homo sapiens with 3 samples.

Results

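HS3ST1, CALB2, PIK3C2A and VPS13C are 4 of the 51136 genes in a table of read counts from PANC-1 cells, which are a widely used cell line of a human pancreatic ductal cancer. They were chosen by their counts in the TAM library against the control library, HS3ST1 and CALB2 among the largest rises and PIK3C2A and VPS13C among the largest falls, so that this difference describes how they were chosen and no test is made on it. RNA-seq was done on 3 libraries, 1 for each condition: control cells given no agent, cells given 200 μM Rg3 for 24 h and cells given 50 μM tamoxifen (TAM) for 24 h. Rg3 is a ginsenoside, a steroid-like saponin of ginseng, and TAM is a blocker of the estrogen receptor used against breast cancer. The time in culture of the control cells is not labelled. Each library came from PANC-1 alone, so that all values describe a single cell line in culture. No difference below has a replicate check.

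HS3ST1 encodes a heparan sulfate glucosamine 3-O-sulfotransferase, an enzyme of the Golgi that adds a rare sulfate group to heparan sulfate chains and so makes the binding site for antithrombin. CALB2 encodes calretinin, a cytosolic calcium-binding protein with EF-hand domains that is known from neurons and mesothelium. PIK3C2A encodes a class II phosphoinositide 3-kinase, which makes 3-phosphorylated lipids on endosomes and at clathrin-coated pits. VPS13C encodes a very large rod-shaped protein that bridges membranes and is thought to carry lipids between the endoplasmic reticulum and late endosomes or lipid droplets. They are set below beside the other genes of their own families.

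The genes that fell are long and poor in G and C, and those that rose are not both so. A stretch of 120 bases from the middle of the coding sequence is shown for both rising genes and for PIK3C2A. Over all genes, base composition of the whole longest transcript went together with the changes, as described further on. By that measure HS3ST1 has 47.6% G and C, and most genes of its length and composition were lower with TAM, against its rise. The sequences are those of GENCODE 29 transcripts, run 5′ to 3′, and the capitals mark G and C:
HS3ST1: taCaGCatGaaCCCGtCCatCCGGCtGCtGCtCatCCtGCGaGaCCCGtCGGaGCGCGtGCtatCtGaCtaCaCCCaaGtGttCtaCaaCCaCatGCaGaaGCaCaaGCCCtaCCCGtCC
CALB2: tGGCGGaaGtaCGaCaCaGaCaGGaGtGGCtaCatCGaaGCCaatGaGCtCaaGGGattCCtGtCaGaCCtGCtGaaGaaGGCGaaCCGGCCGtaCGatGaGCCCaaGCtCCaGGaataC
PIK3C2A: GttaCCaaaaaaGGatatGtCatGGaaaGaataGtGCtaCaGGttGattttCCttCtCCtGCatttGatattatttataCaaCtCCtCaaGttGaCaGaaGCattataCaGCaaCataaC

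These are bases 400 to 519 of the 921 coding bases of HS3ST1, 346 to 465 of the 813 of CALB2 and 2470 to 2589 of the 5058 of PIK3C2A. G and C made up 58.3% of the HS3ST1 stretch, 55.8% of that of CALB2 and 34.2% of that of PIK3C2A. At the third position of the codons of the whole coding sequence the gap was wider, with 82.7% G or C in HS3ST1 and 70.8% in CALB2 against 31.4% in PIK3C2A and 35.6% in VPS13C.

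In the annotation (GENCODE 29 on GRCh38, the build named in the submitters' processing notes), HS3ST1 lies at chr4:11393150-11429765 on the minus strand, and its longest transcript has 8031 bases with 47.6% G and C. CALB2 lies at chr16:71358713-71390438 on the plus strand, with a transcript of 1466 bases and 54.7% G and C. PIK3C2A lies at chr11:17077730-17207983 on the minus strand, with 8227 bases and 37.1%. VPS13C lies at chr15:61852389-62060473 on the minus strand, with 14579 bases and 37.1%. Little of these transcripts recurs elsewhere. The share of stretches of 50 bases that are also in a transcript of another gene was 0 for CALB2, 0.539% for HS3ST1, 0.709% for PIK3C2A and 1.01% for VPS13C. Exons of VPS13C overlap the antisense RNA AC009554.1 over 192 bases, and since the use of strand in counting is not given in the sources used here, reads there cannot be told apart. Exons of PIK3C2A overlap RPS13, a ribosomal protein gene on the same strand, over 58 bases.

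The start regions do not divide in the way the coding sequences do. RefSeq promoters (GRCh38.p14, 250 bases before to 50 after the start) matched 3 of the 4 genes and are shown because both falling genes and a rising gene can be read side by side. They run 5′ to 3′ along the gene's own strand. The capitals mark matches to the motifs searched on both strands, which were TGANTCA of AP-1 factors, TGACGTCA of CREB factors, TTGCATCA of the C/EBP and ATF composite element, the CCAAT box, the GGGCGG letters of the GC box and the TATAAA letters of the TATA box.

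HS3ST1, chr4:11428845-11429144, minus strand: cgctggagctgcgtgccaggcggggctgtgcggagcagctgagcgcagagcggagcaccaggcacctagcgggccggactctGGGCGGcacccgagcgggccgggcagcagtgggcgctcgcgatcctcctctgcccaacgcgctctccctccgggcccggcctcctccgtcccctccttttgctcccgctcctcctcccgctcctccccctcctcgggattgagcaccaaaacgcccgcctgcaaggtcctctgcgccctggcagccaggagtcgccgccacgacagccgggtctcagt
PIK3C2A, chr11:17207937-17208236, minus strand: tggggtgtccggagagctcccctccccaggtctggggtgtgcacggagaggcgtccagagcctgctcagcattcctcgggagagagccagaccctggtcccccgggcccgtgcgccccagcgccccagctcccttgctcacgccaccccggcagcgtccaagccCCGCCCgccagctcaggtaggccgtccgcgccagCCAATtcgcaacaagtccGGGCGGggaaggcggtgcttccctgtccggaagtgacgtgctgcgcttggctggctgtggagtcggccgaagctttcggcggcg
VPS13C, chr15:62060398-62060697, minus strand: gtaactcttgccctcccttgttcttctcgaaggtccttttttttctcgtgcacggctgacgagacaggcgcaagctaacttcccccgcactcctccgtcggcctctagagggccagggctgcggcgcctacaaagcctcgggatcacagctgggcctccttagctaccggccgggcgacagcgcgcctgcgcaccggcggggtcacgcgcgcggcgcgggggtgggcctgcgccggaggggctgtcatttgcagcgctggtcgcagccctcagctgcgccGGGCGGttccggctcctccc

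All 3 windows were rich in G and C, at 73%, 71.3% and 69%, against a median of 58.7% over 35116 promoters. They held 30, 28 and 33 CpG pairs, against a median of 14. GGGCGG stood in each of them, as it does in 45.0% of all promoters, at 168 bases before the start in HS3ST1, at 86 (as the reverse complement) and 34 bases before it in PIK3C2A and from base 30 after it in VPS13C. CCAAT, present in 34.6% of promoters, was found in PIK3C2A alone, 52 bases before the start. None of the 3 windows held the AP-1 letters (in 7.71% of promoters), the CREB letters (1.85%), the C/EBP and ATF letters (0.866%) or the TATA box letters (11.5%). The matches overlapped no other motif and are a description of the letters.

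The 3 libraries held 11300766 (control), 12861693 (Rg3) and 11321442 (TAM) reads on genes, and levels are given as counts scaled by library size and TMM factor (CPM), with exact 95% Poisson intervals that cover counting error only. The keratins KRT8 and KRT18, epithelial markers of a line such as PANC-1, had between 7406 and 15329 reads in each library. The ductal markers KRT7, KRT19 and EPCAM had fewer, with 93 to 345, 181 to 665 and 8 to 26 reads, and KRT19 and EPCAM were at their lowest with TAM. Mesothelium and interneurons also use calretinin, and each of their marker lists had 3 genes at 0 in every library: UPK3B, LRRN4 and ITLN1 for mesothelium, and GAD2, SLC32A1 and RELN for interneurons. Of the other mesothelial markers, MSLN had 5 to 10 reads and WT1 had 24 to 57, and the summed level of the list was 5.84 CPM in control, 3.61 with Rg3 and 3.32 with TAM. The interneuron list stood at 4.27, 3.13 and 3.32. Neither sum was at its highest with TAM, where CALB2 was, but both sums rest on few genes and say little about either cell type. The interneuron sum was GAD1 alone, with 49, 45 and 33 reads in control, Rg3 and TAM. The mesothelial sum was mostly WT1 (57, 47 and 24), beside MSLN (10, 5 and 9). Fewer RNA molecules per cell and fewer cells with the RNA cannot be told apart in such libraries.

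HS3ST1 was counted 12 times in the control library, 16 times in the Rg3 library and 159 times in the TAM library. Its level was 1.05 CPM in control (95% interval 0.540 to 1.83), 1.11 with Rg3 (0.635 to 1.80) and 15.98 with TAM (13.6 to 18.7). The TAM library stood alone above the other libraries, whose intervals overlapped. The difference from control with TAM was 3.93 on the log2 scale (exact Clopper-Pearson 95% interval 3.09 to 4.92), a level 15.3 times as high (8.51 to 30.2). With Rg3 it was 0.09 (-1.08 to 1.30), or 0.472 to 2.46 times the control level, so that no change within these bounds was detectable at this depth.

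CALB2 was counted 12, 7 and 129 times in the control, Rg3 and TAM libraries. Its level was 1.05 CPM in control (0.540 to 1.83), 0.486 with Rg3 (0.195 to 1.00) and 12.96 with TAM (10.8 to 15.4). Again only the TAM library stood apart. The difference from control was 3.63 with TAM (2.78 to 4.62), or 12.4 times the control level (6.86 to 24.6), and -1.10 with Rg3 (-2.69 to 0.36). Both rises were measured against only 12 control reads, which sets the width of their intervals.

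PIK3C2A was counted 198 times in control, 516 times with Rg3 and 22 times with TAM. Its level was 17.2 CPM in control (14.9 to 19.8), 35.8 with Rg3 (32.8 to 39.1) and 2.21 with TAM (1.39 to 3.35). The intervals of the 3 libraries did not overlap, and control lay between the treated libraries. The difference from control was -2.96 with TAM (-3.67 to -2.32), a level 7.80 times lower (5.01 to 12.7), and 1.06 with Rg3 (0.82 to 1.30), a level 2.08 times as high.

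VPS13C was counted 207 times in control, 534 times with Rg3 and 27 times with TAM, close to the reads of PIK3C2A in each library. Its level was 18.03 CPM in control (15.7 to 20.7), 37.1 with Rg3 (34.0 to 40.4) and 2.71 with TAM (1.79 to 3.95). The order of the libraries was that of PIK3C2A, with intervals that did not overlap. The difference from control was -2.73 with TAM (-3.37 to -2.15), a level 6.65 times lower (4.44 to 10.3), and 1.04 with Rg3 (0.81 to 1.28), a level 2.06 times as high. Both comparisons share the control library, so that a control library low or high for a gene by itself would move both values.

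**Figure D1:**
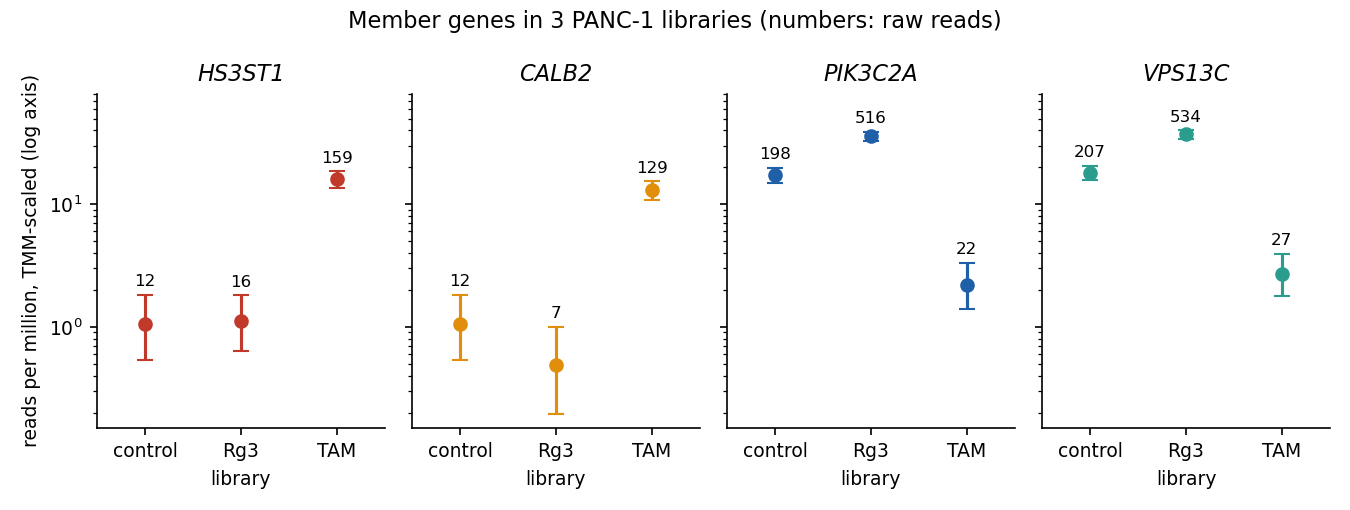
TMM-scaled CPM of HS3ST1, CALB2, PIK3C2A and VPS13C (y axis, log scale) in the control, Rg3 and TAM libraries (x axis), 1 library each. Bars are exact 95% counting intervals and the numbers are raw reads: HS3ST1 and CALB2 are highest with TAM, at 159 and 129 reads, and PIK3C2A and VPS13C are highest with Rg3, at 516 and 534, and lowest with TAM, at 22 and 27.

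Levels of different genes can be set side by side only per length. In control, PIK3C2A had a level of 2.10 CPM per kb of its longest transcript (1.81 to 2.41), VPS13C 1.24 (1.07 to 1.42), CALB2 0.713 (0.368 to 1.25) and HS3ST1 0.130 (0.0672 to 0.227). The intervals of VPS13C and CALB2 overlapped and the other neighbors in this order did not. With TAM the order was turned, with 8.84 CPM per kb for CALB2 (7.38 to 10.5), 1.99 for HS3ST1 (1.69 to 2.32), 0.269 for PIK3C2A (0.168 to 0.407) and 0.186 for VPS13C (0.123 to 0.271), of which the last pair overlapped. Per length, HS3ST1 with TAM thus reached about the level that PIK3C2A had in control, while CALB2 stood above all of the control values. With Rg3 the values were 4.36 for PIK3C2A (3.99 to 4.75), 2.54 for VPS13C (2.33 to 2.77), 0.332 for CALB2 (0.133 to 0.683) and 0.138 for HS3ST1 (0.0791 to 0.225), and the last pair overlapped.

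By fold alone (over 1.5 or under 0.67), the 4 genes gave 2 higher and 2 lower with TAM, in a comparison where 17.4% of 16079 genes were higher and 23.8% lower by that rule. The choice of the genes fixed this count. With Rg3, PIK3C2A and VPS13C were higher and CALB2 was lower, with an interval that includes 0, where 25% of 16487 genes were higher and 19.5% lower. Among 10961 genes with at least 100 reads in control or Rg3, PIK3C2A and VPS13C ranked 616 and 650 from the top by their change with Rg3.

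Among 9998 genes with at least 100 reads in control or TAM, HS3ST1 ranked 3 and CALB2 4 from the top by their change with TAM. Above them were RPL18P3, a ribosomal protein pseudogene (8 and 185 reads, 4.74 on the log2 scale), and RN7SK, a small nuclear RNA whose stretches all recur in other annotated copies (8 and 113 reads, 4.03). Just below CALB2 were MIR4721 at 3.23, RAB17, a GTPase of epithelial membrane traffic, at 3.13 (38 and 288 reads), and the chemokine CCL2 at 3.04. HS3ST1 and CALB2 were thus the protein-coding genes with the largest rises among these 9998. From the bottom, PIK3C2A ranked 2 and VPS13C 5. COL6A3, a collagen chain, was lower than either at -3.33 (116 and 10 reads), TRND at -2.89 and LINC00641 at -2.74 lay between them, and HIVEP1 at -2.71, COL5A1 at -2.56 and VPS13A at -2.53 followed.

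Long transcripts poor in G and C were lower with TAM across the whole table, and PIK3C2A and VPS13C are such transcripts. Of 296 compared genes with a longest transcript of 8000 bases or more and under 40% G and C, 61.1% were lower with TAM and 1.01% higher, where a gene was called on its fold (over 1.5 or under 0.67) and on its reads (exact two-sided binomial test, Benjamini-Hochberg adjusted p under 0.05). Over all 16079 genes 18.4% were lower and 14% higher. The median change of the class was -0.87 and its 5th to 95th percentiles were -1.99 to 0.32, so that PIK3C2A at -2.96 and VPS13C at -2.73 lay below the bulk of their own class. HS3ST1 went the other way from its class: of 500 genes as long with 40% to 50% G and C, 58.2% were lower and 4% higher, and the 95th percentile of 0.53 was far under its 3.93. CALB2, short and richer in G and C, went the same way as its class, where 31.0% of 2016 genes were higher and 3.92% lower, but its 3.63 was above the 95th percentile of 1.32. The 4 genes were chosen for these changes, so that their place outside the class ranges follows from the choice and is no separate result.

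With Rg3, PIK3C2A and VPS13C lay within the range of genes of their composition. Of 303 genes of the same class, 73.6% were higher with Rg3 and 0 lower, with a median of 0.83 and 5th to 95th percentiles of 0.17 to 1.48, a range that holds the 1.06 of PIK3C2A and the 1.04 of VPS13C. Over all 16487 genes 20.5% were higher and 15.8% lower with Rg3. Across 14279 genes with a length and a G and C content, Spearman's rho of the Rg3 change was -0.75 with G and C content and 0.17 with length. With TAM, across 14019 genes, it was 0.44 and -0.36. These describe genes of the same pair of libraries, which are not independent replicates.

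When a smooth trend on length and G and C content was taken off, HS3ST1 stood at 4.49 with TAM (3.64 to 5.47) and CALB2 at 3.28 (2.43 to 4.27). PIK3C2A stood at -2.18 (-2.89 to -1.54) and VPS13C at -1.90 (-2.53 to -1.31). All 4 kept their direction, and HS3ST1 and CALB2 ranked 1 and 3 from the top and PIK3C2A and VPS13C 11 and 25 from the bottom of 9337 genes. The 4 genes were chosen for their changes with TAM, so that these directions and ranks follow largely from the choice. With Rg3, the values of PIK3C2A and VPS13C dropped to 0.22 (-0.02 to 0.47) and 0.19 (-0.05 to 0.42), with intervals that include 0. The fitted trend itself stood at 0.83 for PIK3C2A and 0.85 for VPS13C with Rg3.

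**Figure D2:**
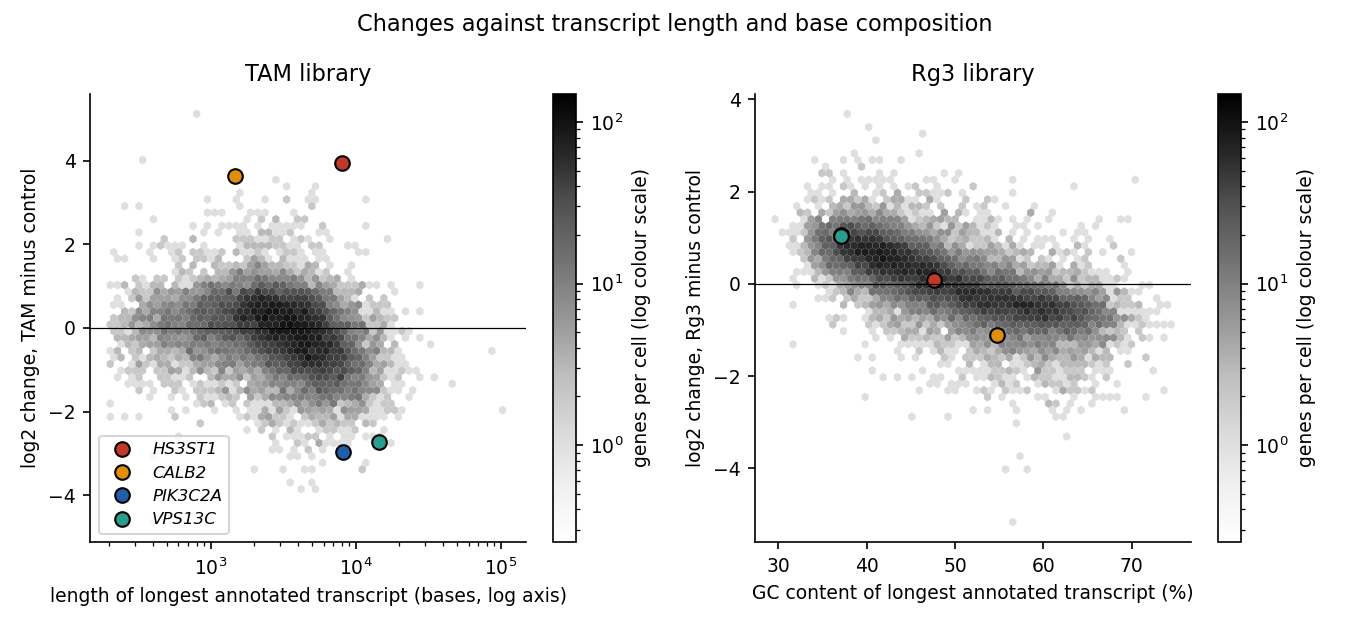
Change with TAM against the length of the longest annotated transcript in bases (left, log x axis) and change with Rg3 against its G and C content in percent (right), both changes on the log2 scale, with gray cells darker where they hold more genes (log color scale) and HS3ST1, CALB2, PIK3C2A and VPS13C as colored points. The 4 genes lie at the edges of the cloud with TAM, while with Rg3 PIK3C2A, hidden behind VPS13C at 37.1%, lies within it.

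**Figure D3:**
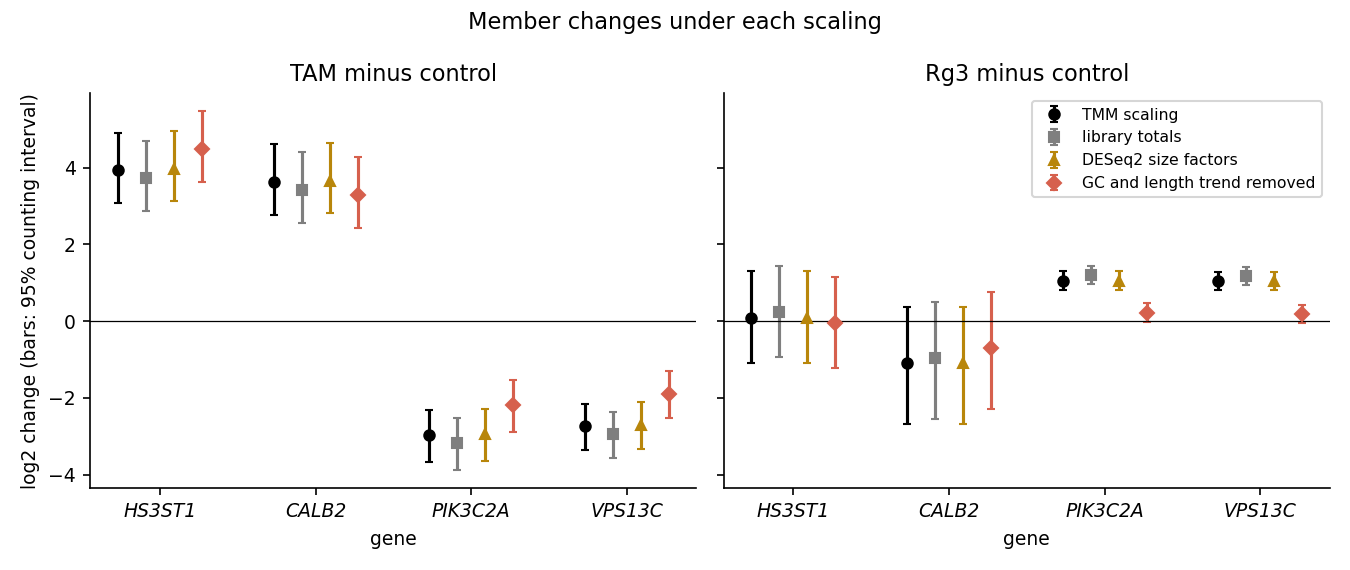
Log2 change of the 4 genes (y axis, bars are exact 95% counting intervals) with TAM (left) and Rg3 (right) under TMM scaling, division by library totals, DESeq2 size factors and removal of the length and G and C trend. With TAM each gene, chosen for its change with TAM, keeps its sign under every setting. With Rg3 PIK3C2A and VPS13C fall from 1.06 and 1.04 to 0.22 and 0.19 when the trend is removed.

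HS3ST1 and HS3ST6 were the genes of this family with more than 1 read in a library. The other 6 3-O-sulfotransferases attach the same sulfate group within different sequences of heparan sulfate. No read was counted on HS3ST2, HS3ST3A1, HS3ST4 or HS3ST5 in any library, which allows up to 3 reads each, and HS3ST3B1 had 1, 1 and 0. HS3ST6 had 26 reads in control, 15 with Rg3 and 8 with TAM, opposite in direction to HS3ST1 with TAM. The difference with TAM was -1.49 (-2.85 to -0.31, exact binomial test, adjusted p = 0.0184). With Rg3 it was -1.12 (-2.14 to -0.15, exact binomial test, adjusted p = 0.0301), a call that was lost with division by library totals (-0.98, exact test, adjusted p = 0.0650). These tests compare the reads of 2 libraries and not the conditions. With the length and G and C trend removed, the difference of HS3ST6 was -1.79 with TAM. With Rg3 it was then -0.33, inside the fold limits and so not called. Per length, HS3ST6 was above HS3ST1 in control, at 1.78 against 0.130 CPM per kb, and below it with TAM, at 0.631 against 1.99.

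The nearest relatives of CALB2 had next to no reads. CALB1, which encodes calbindin, had 0, 1 and 0 reads in control, Rg3 and TAM, and SCGN, which encodes the secretagogin of endocrine cells, had 0 in each. The rise of CALB2 was thus without any measured counterpart in this small family.

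Of the 7 other catalytic subunits of phosphoinositide 3-kinases, PIK3CG and PIK3C2G had no read in any library and 5 could be compared. With TAM, 4 of the 5 were lower, where 18.4% of all genes were. PIK3C3, the class III kinase of autophagy, had 99 reads in control and 39 with TAM (-1.14). PIK3CA, a class I kinase often mutated in cancer, had 121 and 50 (-1.07), and 39.5% of its stretches recur in other genes, most of all KCNMB3. PIK3CD had 427 and 209 (-0.82), and PIK3CB had 457 and 231 (-0.78). The closest relative in use, the class II kinase PIK3C2B, had 140 and 107 (-0.18, -0.56 to 0.19) and did not pass the test. None of these intervals reached that of PIK3C2A (-3.67 to -2.32), the lowest bound being -1.71 for PIK3C3. PIK3C2A was chosen for its large fall, so that this gap follows in part from the choice. With the length and G and C trend removed, only PIK3CD stayed lower by the test (-0.82), and PIK3CA, PIK3CB and PIK3C3 lay between -0.32 and -0.09.

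With Rg3, PIK3C3 (99 and 272 reads, 1.13), PIK3CA (121 and 331, 1.13) and PIK3CB (457 and 890, 0.63) were higher, 3 of 5, where 20.5% of all genes were. PIK3C2B (0.16, -0.16 to 0.48) and PIK3CD (-0.40) were not called. The 1.06 of PIK3C2A lay among these values. After removal of the trend none of the 3 was called.

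VPS13A, VPS13B and VPS13D, which encode the other bridge-like lipid carriers of the VPS13 family, were all lower with TAM, 3 of 3, where 18.4% of all genes were and 53.7% of the 1068 genes with a transcript of 8000 bases or more. VPS13A, whose loss causes chorea-acanthocytosis, had 120 reads in control and 18 with TAM, a difference of -2.53 (-3.33 to -1.81) that overlaps the interval of VPS13C. VPS13B, the gene of Cohen syndrome, had 132 and 42 (-1.45, -1.98 to -0.94). VPS13D had 503 and 162 (-1.43, -1.69 to -1.17). The intervals of VPS13B and VPS13D did not reach that of VPS13C, which was chosen for its large fall. The longest transcripts of VPS13A, VPS13B and VPS13D had 14094 to 16357 bases. Less the trend, VPS13A (-1.70) and VPS13D (-0.58) were still lower by the test, while VPS13B (-0.56, exact binomial test, adjusted p = 0.0575) was not.

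With Rg3, VPS13A (120 and 306 reads, 1.02) and VPS13B (132 and 281, 0.76) were higher, 2 of 3, where 20.5% of all genes were, and VPS13D (503 and 818, 0.37) was not called. VPS13A and VPS13C were alike in both comparisons, at 1.02 and 1.04 with Rg3. Without the trend neither VPS13A (0.16) nor VPS13B (0.28) was called with Rg3.

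**Figure D4:**
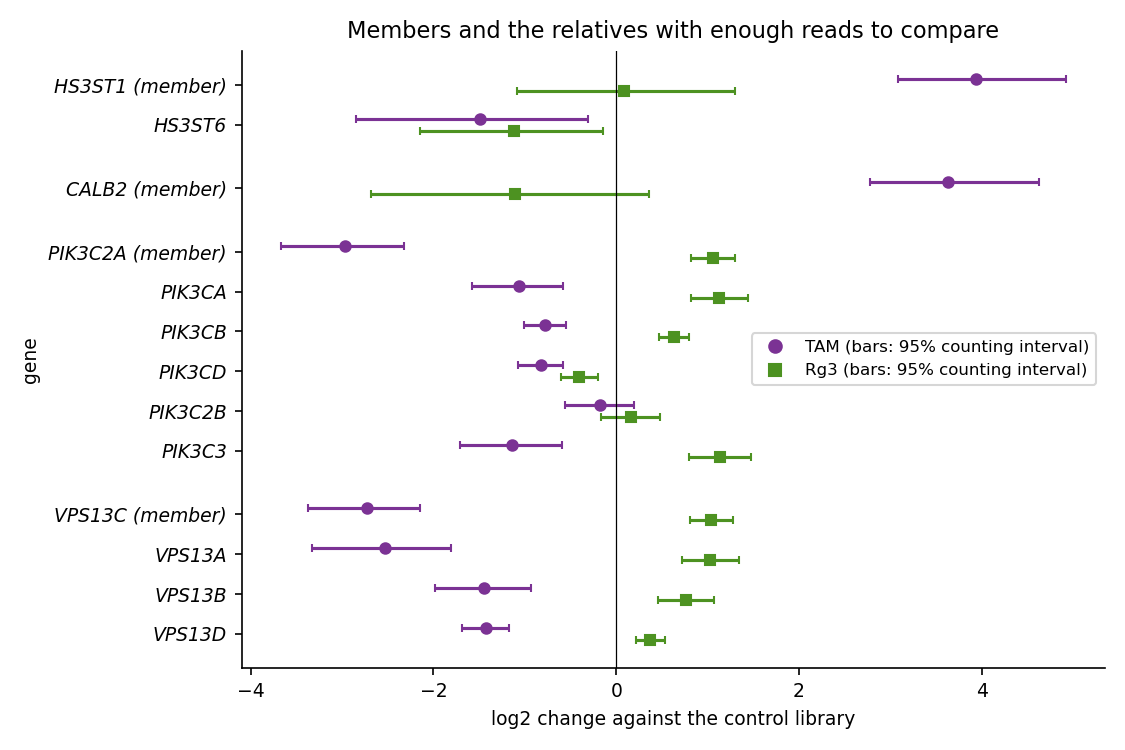
Log2 change against the control library (x axis) with TAM (circles) and Rg3 (squares) for the 4 genes and the relatives with at least 10 reads in a library compared (y axis), with exact 95% counting intervals as bars. HS3ST1 and HS3ST6 lie on opposite sides with TAM, and VPS13A lies closest to VPS13C, at -2.53 and -2.73.

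With TAM, more of the other heparan sulfate genes were lower than higher, as in the table as a whole. The list held 47 genes for building, modifying and carrying the chains, HS3ST1 left out and its 6 relatives included, of which 33 could be compared. With TAM 6 were higher and 10 lower, beside 14% and 18.4% of all genes, with a median of -0.18 against -0.02 for all genes. The rises were led by SLC35B2, the Golgi carrier of the sulfate donor, from 2464 to 4847 reads (1.18). Next were HS6ST1, a 6-O-sulfotransferase (0.83, with 17.98% of its stretches shared, most of all with a pseudogene), and B3GALT6 of the linker region (0.81). Among genes with at least 50 reads, the falls were led by GLCE, the epimerase that makes iduronic acid, from 148 to 46 reads (-1.48), UGDH, which makes UDP-glucuronic acid (-1.40), and PAPSS2, which makes the sulfate donor (-1.28), and among those with fewer reads GPC4 (22 and 6, -1.67) and HS3ST6 (-1.49) were lower still. No gene of the list came near the 3.93 of HS3ST1, since the range was -1.67 to 1.18, but HS3ST1 was chosen for its large rise.

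With Rg3, 5 of the 33 were higher and 7 lower (median, -0.22), beside 20.5% and 15.8% of all genes. EXTL2 (1.42), GLCE (1.17) and GPC4 (0.86) were higher, as were HS2ST1 (0.63) and PAPSS2 (0.60), which had smaller changes. The proteoglycan cores AGRN (-1.02), HSPG2 (-0.99) and SDC1 (-0.89) were lower, HSPG2 sharing 9.66% of its stretches with other genes. GLCE, GPC4, HS2ST1 (-1.01 with TAM) and PAPSS2 were also called lower with TAM, and EXTL2 (-0.18) was not, in comparisons that share the control library. How many of all genes higher with Rg3 were lower with TAM was not counted. Across the table the changes ran opposite ways with G and C content, with a Spearman's rho of -0.75 for Rg3 and 0.44 for TAM.

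Among EF-hand genes, more were higher than lower with TAM. Of 42 listed genes for EF-hand calcium-binding proteins, CALB2 left out, 27 could be compared. With TAM 9 were higher and 1 lower, beside 14% and 18.4% of all genes, with a median of 0.39. Most of those called higher were S100 genes, nearly all with short transcripts rich in G and C. Of 2016 genes under 2000 bases with 50% or more G and C, 31.0% were higher and 3.92% lower with TAM. S100A16 rose from 1656 to 4266 reads (1.57), S100A3 from 225 to 455 (1.22) and S100A13 from 750 to 1324 (1.03, with 26.1% of its stretches shared). KCNIP3, an EF-hand gene that the list left out, rose from 72 to 410 reads (2.72). It was named because its changes were like those of CALB2, so that its large rise follows from that choice. RCN2, a calcium-binding protein of the endoplasmic reticulum, was lower (-0.64). With the trend removed the median was 0.15. Division by library totals left 3 higher and 3 lower, beside 1120 and 4325 of all 16079 genes.

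With Rg3, 6 of the 27 were higher and 8 lower (median, -0.29), beside 20.5% and 15.8% of all genes. CETN2 (1.25), RCN2 (0.92) and CALM2, a calmodulin gene (0.90), were higher, and RCN3 (-0.97), S100A16 (-0.95) and S100A1 (-0.79) were lower. The -1.10 of CALB2, from 12 and 7 reads, lay within the range of the list, -1.33 to 1.25.

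Among genes of phosphoinositide turnover, more were lower than higher with TAM. Of 52 listed kinases, regulatory subunits and phosphatases, PIK3C2A left out, 46 could be compared, and 17 were lower and 1 higher, beside 18.4% and 14% of all genes, with a median of -0.53. PIKFYVE, a lipid kinase of endosomes, fell from 385 to 77 reads (-2.12), PIK3R1, a regulatory subunit of class I kinases, from 85 to 28 (-1.40), and OCRL, the phosphatase of Lowe syndrome, from 588 to 210 (-1.28). PIK3R2, another regulatory subunit, was the 1 gene higher (0.62), and 97.9% of its stretches recur in other genes, most of all the overlapping AC007192.1. The -2.96 of PIK3C2A, chosen for its large fall, was below every gene of the list. With the trend removed 6 of the 46 were lower and 0 higher, beside 1471 and 1586 of all 14019 genes, and the median was -0.16.

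With Rg3, 19 of the 46 were higher and 3 lower (median, 0.27), beside 20.5% and 15.8% of all genes. SACM1L, a lipid phosphatase of the endoplasmic reticulum and Golgi, went from 194 to 548 reads (1.17), and SYNJ1, a phosphatase of synaptic and endocytic membranes, from 70 to 197 (1.17). INPPL1 was lower (-0.69), as were the little-read INPP5D (12 and 1 reads) and INPP5J (15 and 4). With the trend removed 5 were higher and 1 lower, beside 747 and 925 of all 14279 genes.

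Lipid transfer genes of membrane contact sites were likewise lower with TAM in 15 of 38 compared genes and higher in 2, out of 39 listed without VPS13C (median, -0.48), beside 18.4% and 14% of all genes. The list includes VPS13A, VPS13B and VPS13D, already described as its family. These 3 were the largest falls among those with at least 50 reads, and ATG2B, a related bridge-like carrier of autophagy, had 41 and 6 reads (-2.57). C2CD2L (0.97) and STARD3NL (0.81) were higher. With the trend removed the counts were 4 higher and 4 lower, beside 1586 and 1471 of all 14019 genes. With library totals 23 were lower, beside 4325 of all 16079 genes.

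With Rg3, 17 of the 38 were higher and 4 lower (median, 0.50), beside 20.5% and 15.8% of all genes. MOSPD2, a tether of the endoplasmic reticulum, went from 21 to 119 reads (2.18), KIAA1109, another bridge-like carrier, from 127 to 411 (1.37) and COL4A3BP, which carries ceramide, from 96 to 267 (1.15). OSBPL7 (-0.93), OSBPL5 (-0.82), OSBP2 (-0.73) and GRAMD1A (-0.58) were lower. Less the trend, 5 were higher and 1 lower, beside 747 and 925 of all 14279 genes.

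**Figure D5:**
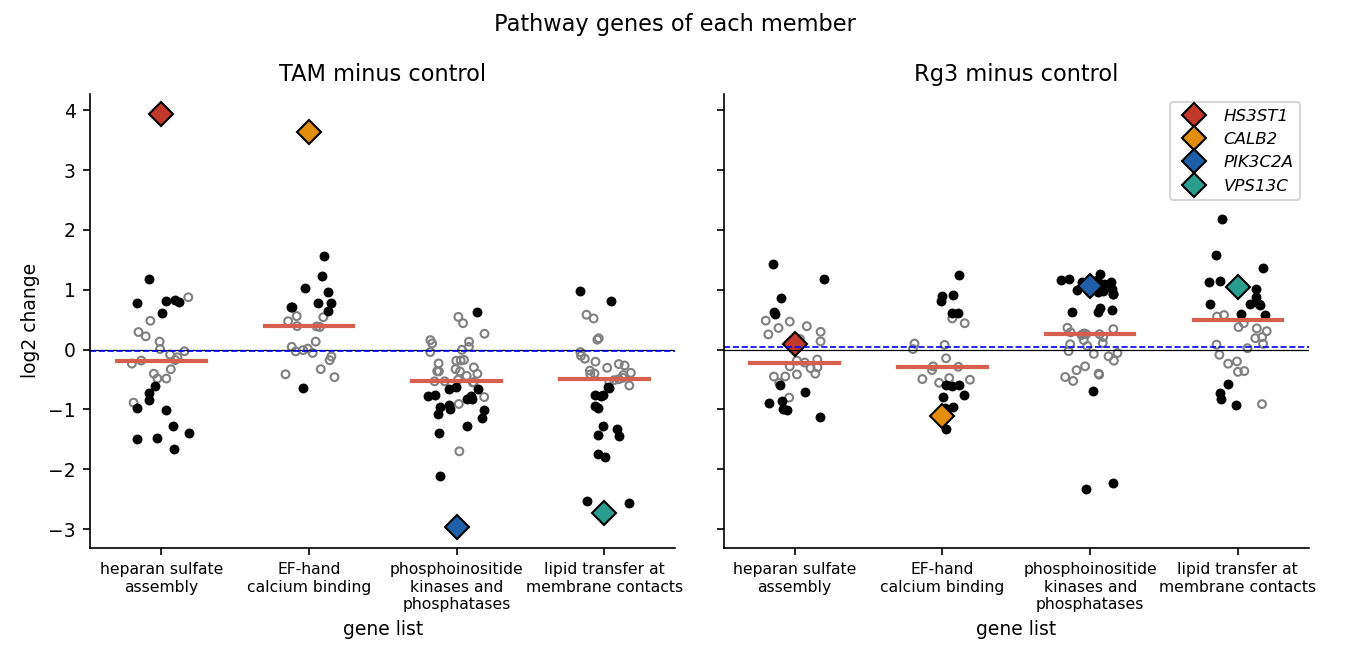
Log2 change (y axis) with TAM (left) and Rg3 (right) for the compared genes of 4 lists (x axis), 1 point a gene, filled where called and open where not, with a red bar at each list's median, a dashed line at the median of all genes and a diamond for the gene the list was built around, which is not counted in it. HS3ST1 at 3.93 and CALB2 at 3.63 stand above every gene of their lists with TAM, and PIK3C2A and VPS13C below every gene of theirs. The 4 genes were chosen for these changes with TAM.

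The genes whose pair of changes was most like that of each gene were found by Euclidean distance over the log2 changes with TAM and Rg3, among 12736 genes with at least 50 reads in some library. The measure rests on 2 differences that share the control library and describes these libraries only. For HS3ST1 the nearest was LY6K, a surface protein gene, at 0.422 (9, 12 and 89 reads in control, Rg3 and TAM). Of the LY6K stretches, 70.2% recur in other genes, most of all LNCOC1. PARM1 (9, 11 and 72 reads), RAB17 (38, 48 and 288) and BOLA2 (421, 548 and 2953, with 88.4% of its stretches shared) followed. MIR4721 (70, 60 and 570 reads) came next, and 27.5% of its stretches recur in other genes, most of all TUFM. None of these was within the distance at which the falling genes had neighbors, but the interval of the Rg3 change of HS3ST1 ran from -1.08 to 1.30.

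For CALB2 the nearest were MIR4721 at 0.685 and KCNIP3, an EF-hand protein gene of neurons (72, 45 and 410 reads), at 0.922. CCDC183-AS1, GPER1, the gene of a membrane estrogen receptor (16, 13 and 86 reads), and ANKRD35 followed at up to 1.13. The nearest gene of CALB2 was thus farther off than the nearest gene of each of the other 3. Its distances carry wide counting error, since the interval of its Rg3 change ran from -2.69 to 0.36.

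PIK3C2A and VPS13C were near each other, at a distance of 0.232. Closer to PIK3C2A were AASDH at 0.0930 (34, 86 and 4 reads) and TXNDC16 at 0.132 (25, 62 and 3), and ANKRD26 (31, 88 and 4) and the pseudogene CLIC4P3 (23, 65 and 3) came next. The same 4 genes were nearest to VPS13C, followed by ATG2B at 0.166 (41, 105 and 6 reads). Each of the 5 had at most 6 reads with TAM, so that their distances carry wide counting error.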

How the data were processed

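RNA was measured in PANC-1 cells in 3 libraries, 1 each for control, Rg3 and TAM, grouped by the sample labels. The authors sequenced on an Ion Proton, used TopHat for alignment, and the values they deposited are raw counts for each gene symbol, not normalized. The counting tool and annotation are not given in the sources used here. Total counts ranged from 11300766 to 12861693.

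TMM factors came from edgeR 4.0.16 in R 4.3.3 (1.02 for control, 1.12 for Rg3, 0.879 for TAM), and levels and log2 changes from Python 3.11.15. A gene needed 10 counts in control or in the treated library to be compared, and counts under 3 were raised to 3. A gene was called on its fold (over 1.5 or under 0.67) together with its exact two-sided binomial p, adjusted after Benjamini-Hochberg over all compared genes (under 0.05). It compares libraries, not conditions. Limma, used in the study's methods, needs replicates and could not be fitted. Length and GC content were those of the longest GENCODE 29 transcript, known for 87.2% (TAM) and 86.6% (Rg3) of compared genes, and their trend was a loess fit (span 0.3). Alternatives were library totals, DESeq2 1.42.0 size factors, the trend removed, filters of 1 and 50 counts, the fold alone and the exact test of edgeR given an assumed variation of 0.4 between cultures. The calls on fold and binomial p and their intervals were tested on simulated Poisson counts with known scaling and no variation between cultures. The scaling factors, the trend and the exact test of edgeR were not tested in this way.

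The 4 genes and the lists were chosen with earlier results of these data known. Named genes were the 4, their 18 relatives, the 3 largest called changes each way in a list (at least 50 counts), the 3 genes ranked above and below each of the 4, the 5 most alike, protein-coding neighbors and cell type markers. GRAMD1A, HS2ST1, INPP5D, INPP5J, PAPSS2 with Rg3 and ATG2B, GPC4 and HS2ST1 with TAM were added after their values were seen. The result of 1 gene named by this rule and 1 sequence are not reported here.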

Additional observations from a re-analysis of the deposited data

How the results depend on the processing

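Each condition had 1 library, so the intervals cover counting error only and the spread between cultures was not measured. No paired analysis was possible because there were no replicates to pair, and no library could be left out. With edgeR's exact test and an assumed variation of 0.4, all 16 counts of list genes were 0, and the counts over all genes were 0 higher and 1 lower with TAM and 0 higher and 1 lower with Rg3 (IGLV1-51 in both). At an unadjusted p under 0.05 that test passed 115 genes higher and 247 lower with TAM, 98 and 128 with Rg3, and in the lists 1 phosphoinositide gene and 2 lipid transfer genes lower with TAM, and 1 phosphoinositide gene lower and 1 lipid transfer gene higher with Rg3.

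With the length and GC trend removed, PIK3C2A moved to -2.18 with TAM and 0.22 with Rg3, and VPS13C to -1.90 and 0.19. Over all genes, 1471 were lower with TAM, and 747 were higher and 925 lower with Rg3. For heparan sulfate, 5 were lower with TAM, and 1 higher and 2 lower with Rg3. EF-hand genes gave 0 lower with TAM, and 1 higher and 2 lower with Rg3. Phosphoinositide genes gave 0 higher and 6 lower with TAM, and 5 higher and 1 lower with Rg3. Lipid transfer genes gave 4 higher and 4 lower with TAM, and 5 higher and 1 lower with Rg3. Signs turned for PIK3C2B (0.15), RCN2 (0.035), ICE2 (0.33), ZNF23 (0.44) and NKX3-2 (-0.32) with TAM, and for PIK3CB (-0.10), PIK3CD (0.092), BOLA2 (-0.23), CCDC183-AS1 (0.21), GPER1 (0.030) and PLEKHA7 (0.025) with Rg3.

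Library totals put changes 0.21 lower with TAM (a shift of -0.21) and 0.14 higher with Rg3. Over all genes, 1120 were then higher and 4325 lower with TAM, against 2250 and 2965, and 4367 higher and 1749 lower with Rg3, against 3377 and 2606. In the lists, 4 heparan sulfate genes were lower with Rg3, 3 EF-hand genes were higher and 3 lower with TAM and 4 lower with Rg3, 0 phosphoinositide genes were higher with TAM, and 23 lipid transfer genes were lower with TAM. NKX3-2 turned to -0.20 with TAM and PARM1 to 0.10 with Rg3. With a filter of 50 counts, 1 phosphoinositide gene was lower with Rg3. The cause of these moves was not tested beyond the construction of each setting. All 113 values of other named genes kept direction and side of the threshold with DESeq2 size factors, 105 with library totals and 56 with the trend removed, where 43 lost their call. HS3ST1 and CALB2 kept their rise with TAM under all 4 scalings, from 3.73 to 4.49 and from 3.28 to 3.67. Both were chosen for that rise.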

Other observations

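With TAM, none of the compared neighbors on the chromosome had a change as large as that of the gene of the 4 beside it, which was chosen for its change. The start of NUCB2 lies 170 bases from that of PIK3C2A on the opposite strand, and it had 156 reads in control, 99 with TAM (-0.45, -0.83 to -0.08, not called under TMM scaling) and 362 with Rg3 (0.89). RPS13, which meets the other end of PIK3C2A, had 3823, 2957 (-0.16) and 7287 (0.60). Farther out, NCR3LG1 (-1.30) and PLEKHA7 (-0.91) were lower with TAM. None reached the -2.96 of PIK3C2A with TAM, while with Rg3 NUCB2 and NCR3LG1 (0.91) were near its 1.06.

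VPS13C has the little-read C2CD4A at 6504 bases (1, 4 and 6 reads in control, Rg3 and TAM), C2CD4B with no read, RORA (1, 12 and 2 reads) and ICE2 (-0.45 with TAM and 0.93 with Rg3, near the 1.04 of VPS13C). Beside CALB2, CMTR2 at 68998 bases was lower with TAM (-0.90) and higher with Rg3 (1.15), against the direction of CALB2 in both, HYDIN had no read and ZNF23 was at -0.14 with TAM and 1.26 with Rg3. HS3ST1 stands alone, with CLNK at 708285 bases without a read. Next to it, ZNF518B was lower with TAM (-1.30) and higher with Rg3 (0.74), RAB28 was at 0.52 and 0.79, and NKX3-2 was at 0.0046 and 0.10.

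Of the markers of other cell types, CD68 had 615 reads in control, 426 with Rg3 and 1100 with TAM, while PTPRC and CD3E had at most 1 read, and PECAM1, CDH5, VWF, LUM, DCN and PDGFRA had at most 3. COL1A1 had 1853, 1005 and 734 reads in control, Rg3 and TAM. Of the ductal markers, KRT7 had 248, 93 and 345, KRT19 had 665, 290 and 181, and EPCAM had 26, 26 and 8.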
